A study of Mus musculus with 12 samples.

Results

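The genes described here encode the subunits of voltage-gated sodium channels and of high-voltage-activated calcium channels. Members were the protein-coding genes whose symbol in the table of 12 libraries begins with Scn and a digit, Cacna, Cacnb or Cacng, with the T-type genes Cacna1g, Cacna1h and Cacna1i left out. The rule gave 35 of 19954 listed genes and used no measured value. They comprise 9 sodium alpha, 4 sodium beta, 6 calcium alpha1, 4 calcium alpha2delta, 4 calcium beta and 8 calcium gamma genes.

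RNA was sequenced from E15.5 mouse retina, taken before birth, of strain C57BL/6 per the labels, in pools of 12 retinas. The groups were mutant males, wildtype males, mutant females and wildtype females, with 3 pools each, numbered 4, 5 and 6. Mutant embryos had the genotype Six3-Cre:Tbr2f/f, in which floxed Tbr2 alleles (listed as Eomes) are recombined by Cre driven from Six3, a gene of the developing eye field, so that cells outside that field keep the gene. Tbr2 is a T-box transcription factor of some retinal ganglion cells and displaced amacrine cells. Wildtype animals are labelled as wild type with no Cre named, so Cre and the loss of Tbr2 cannot be told apart. Embryos of several litters were pooled, and p-values measure the spread between pools, not between embryos.

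An alpha subunit of a sodium channel forms the pore and the voltage sensors that start the action potential, and beta subunits are small membrane proteins that adjust its gating and take part in cell adhesion. A calcium channel of the high-voltage-activated class has a pore-forming alpha1 subunit, a cytoplasmic beta subunit and an extracellular alpha2delta subunit, the last pair of which bring it to the membrane and set its opening. Most gamma genes encode TARPs, partners of AMPA-type glutamate receptors named after a calcium channel subunit of skeletal muscle. In the developing retina the ganglion cells are among the first neurons to become excitable, and in the mature retina L-type channels release transmitter from photoreceptors and bipolar cells.

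Total counts per library ranged from 18514607 to 27072825. Eomes stood at 9.62 to 27.4 CPM (counts scaled to a common library total) in the 6 mutant libraries and at 53.4 to 76.1 CPM in the 6 wildtype libraries, so the genotype labels were met in every library. Ganglion cell genes (14 of 14 listed genes present) summed to 3755 to 4209 CPM in mutant and 3789 to 4134 CPM in wildtype libraries, and progenitor genes to 7443 to 8073 CPM in mutant and 7227 to 7624 CPM in wildtype libraries. Lens genes summed to 4.97 to 2026 CPM in mutant and 10.2 to 833 CPM in wildtype libraries. The mitochondrial transcript mt-Nd6 divided the libraries into a high set of 5 (mutant male 4, wildtype male 5, mutant female 4, wildtype females 4 and 6), at 373 to 484 CPM, and a low set of 7, at 9.70 to 48.4 CPM. Mutant male 6 lay farthest out on the first principal component.

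Upstream sequence of Scn2a1 (RefSeq symbol Scn2a), a neuronal sodium alpha gene, is shown because the mutation removes a T-box transcription factor and this start carries AGGTGT, the core of the site such factors bind. The 250 bases before the downstream one of its RefSeq starts hold 1 copy (GRCm38.p6, the mm10 assembly, chr2:65668436-65668685, plus strand). With the 50 bases after that start, which are not printed, the window holds 2 copies on either strand. The sequence runs 5′ to 3′ and the capitals mark the core.
Scn2a1: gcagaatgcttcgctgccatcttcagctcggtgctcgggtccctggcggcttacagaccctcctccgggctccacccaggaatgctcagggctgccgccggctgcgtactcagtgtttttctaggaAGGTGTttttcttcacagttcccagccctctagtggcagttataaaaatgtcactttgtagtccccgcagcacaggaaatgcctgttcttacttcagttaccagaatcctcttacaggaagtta
RefSeq starts were found for 27 of the 35 members, 38 windows in all, each reaching from 250 bases before to 50 bases after a start. The core AGGTGT on either strand occurred in 2 of these 38 windows (5.26%), that of Scn2a1 and a window of Cacna1c, against 13.7% of 32851 windows of the same length. The longer site AGGTGTGA, which contains the core, occurred in 0 of the 38 and in 1.28% of all windows. Such matches describe letters only.

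Levels are compared between genes in deposited FPKM, which divides counts by gene length and library total. Of the 35 members, 5 averaged at least 10 FPKM over the 6 wildtype libraries, 18 lay between 1 and 10, 7 between 0.1 and 1, and 5 under 0.1 FPKM. The share at or above 1 FPKM was 65.7% of members and 63.3% of all listed genes, and the median was 2.24 FPKM for members and 3.85 FPKM for all genes. The 5 most abundant were Cacng4, Cacnb3, Cacng7, Scn3b and Cacnb1, which encode auxiliary proteins, and the highest pore-forming gene, Cacna1b, came ninth. Cacng4, Cacnb3 and Cacng7 were each separated from the next gene by more than the SD of both. Scn3b and Cacnb1 overlapped within their SD and traded places between mutant and wildtype libraries. From Cacna2d1, sixth, down to Cacna1b each neighbour overlapped the next, and so did the next run, from Scn3a down to Scn8a. This order rests on the listed lengths, which differ from the exon bases in GENCODE M21 to unlike degrees. Cacna2d1 has 7472 listed against 12416 exon bases, Cacng8 1897 against 2345 and Cacna1b 9736 against 9942. The order with other lengths was not computed.

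**Figure D1:**
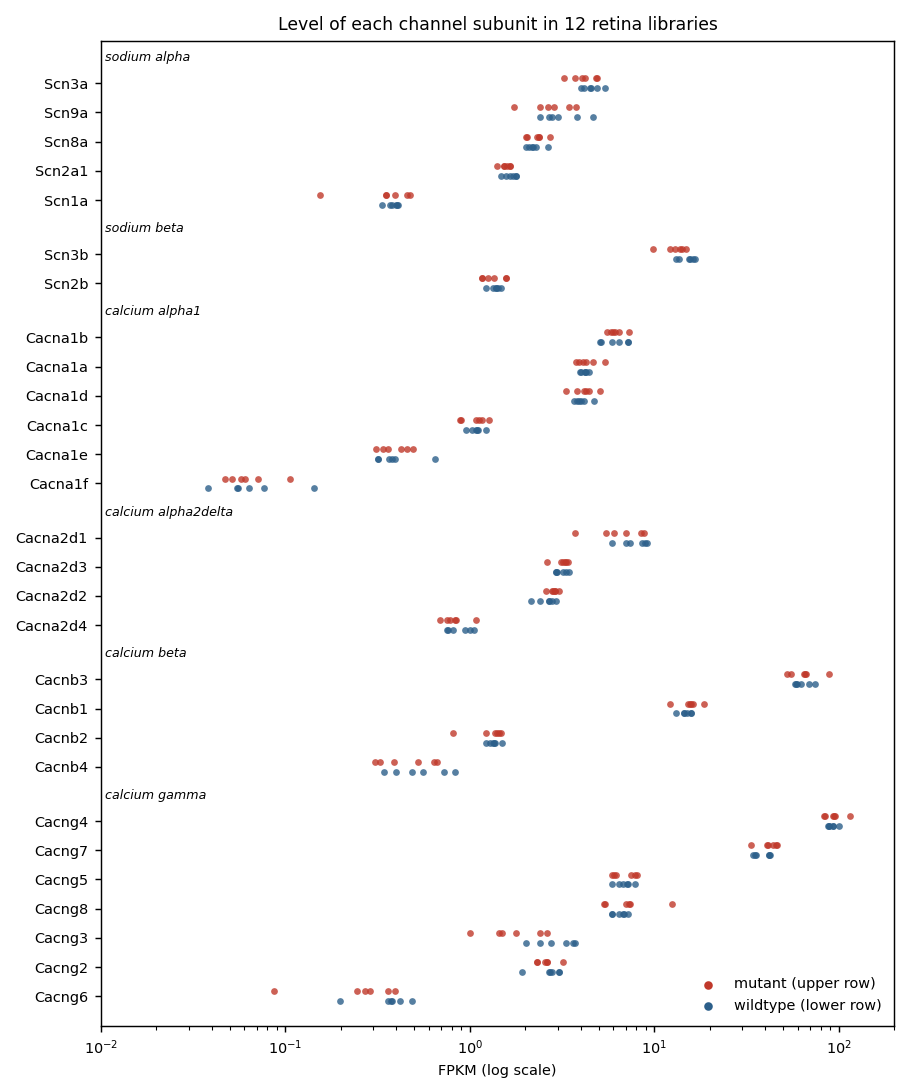
Deposited FPKM (log axis) of 28 of the 30 members that passed the filter on low counts, by subunit class; each point is 1 library, with the 6 mutant libraries above and the 6 wildtype libraries below in each row. Cacng4, Cacnb3 and Cacng7 lie highest, and mutant and wildtype points overlap for every gene shown.

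Among sodium alpha genes, Scn3a, the pore subunit that prevails in the embryonic rodent brain, was highest. Its lowest, median and highest levels were 3.23, 4.14 and 4.91 FPKM in mutant libraries, against 4.0, 4.52 and 5.38 FPKM in wildtype libraries. Scn9a, best known from peripheral sensory neurons, had 1.73, 2.75 and 3.79 FPKM in mutant libraries, against 2.41, 2.88 and 4.68 FPKM in wildtype libraries. Scn8a, which in mature neurons carries current at the axon initial segment and nodes, had 2.02, 2.35 and 2.72 FPKM in mutant libraries, against 2.03, 2.19 and 2.65 FPKM in wildtype libraries. For all 3 genes the genotypes overlapped. Scn3a made up 31.8% ± 2.19 of the summed alpha FPKM in mutant and 33.4% ± 0.956 in wildtype libraries (SD, n = 6 each), Scn9a 21.3% ± 3.74 in mutant and 23.3% ± 3.83 in wildtype libraries, and Scn8a 17.9% ± 3.28 in mutant and 16.5% ± 2.05 in wildtype libraries. Scn2a1, which later takes over from Scn3a in forebrain neurons, supplied 12.1% ± 1.03 in mutant and 12.2% ± 1.13 in wildtype libraries.

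Scn1a, a channel of mature inhibitory neurons and ganglion cells, supplied 2.75% ± 0.739 of the summed alpha FPKM in mutant and 2.81% ± 0.315 in wildtype libraries (SD, n = 6 each). Scn4a, Scn7a and Scn11a, genes of skeletal muscle, of salt-sensing glia and of pain-sensing neurons, did not pass the filter. Their counts per library were 1 to 8, 0 to 10 and 0 to 14 in mutant libraries, and 1 to 16, 0 to 17 and 1 to 10 in wildtype libraries. Of 15 skeletal muscle markers 12 were listed in the same libraries. They summed to 5.19 to 9.62 CPM in mutant and 5.71 to 6.56 CPM in wildtype libraries, and Myod1, Myf5 and Ckm, lowest of the list, had at most 3, 2 and 1 counts in any library. Mylpf, the highest of the list in all 12 libraries, had 50 to 96 counts. The 4 muscle genes that passed the filter, Mylpf, Myh3, Tnnt1 and Chrng, were all higher in mutants, where 52.7% of all genes were lower. Of the 4, 0 were past the edgeR threshold, and Mylpf was at an unadjusted p of 0.0247 in edgeR. The part of the muscle genes in the values of the members was not tested.

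Among sodium beta genes Scn3b accounted for 88.5% ± 2.84 of the summed FPKM in mutant and 90.2% ± 1.52 in wildtype libraries. It encodes a beta subunit that joins the channel without a disulfide bond and is known from embryonic neurons. Scn2b, which is bonded to the alpha subunit by a disulfide, had 1.16, 1.30 and 1.56 FPKM in mutant libraries, against 1.23, 1.39 and 1.48 FPKM in wildtype libraries. Scn4b, the beta subunit linked to resurgent current, had 0 to 4 counts in mutant and 0 to 2 counts in wildtype libraries and did not pass the filter. Scn3b thus stood well above the other beta genes in every library.

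The calcium alpha1 genes were led by Cacna1b, the N-type presynaptic channel, with 5.53, 6.05 and 7.32 FPKM in mutant libraries, against 5.09, 6.14 and 7.23 FPKM in wildtype libraries. Cacna1a, the P/Q-type presynaptic channel, had 3.78, 4.21 and 5.38 FPKM in mutant libraries, against 3.96, 4.21 and 4.43 FPKM in wildtype libraries. Cacna1d, an L-type channel that opens at fairly negative voltages, had 3.34, 4.23 and 5.10 FPKM in mutant libraries, against 3.66, 3.97 and 4.74 FPKM in wildtype libraries. All 3 ranges overlapped between genotypes. Cacna1a and Cacna1d could not be told apart in level within their SD. Cacna1c, the L-type channel of heart and brain, averaged 1.07 ± 0.152 FPKM in mutant and 1.08 ± 0.0935 FPKM in wildtype libraries (SD, n = 6 each), and Cacna1e, the R-type channel, 0.398 ± 0.0712 FPKM in mutant and 0.403 ± 0.122 FPKM in wildtype libraries. Cacna1f, the L-type channel of mature photoreceptor synapses, had 6 to 13 counts in mutant and 5 to 19 counts in wildtype libraries.

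Of the alpha2delta genes, Cacna2d1, whose product binds gabapentin, was highest, with 3.73, 6.51 and 8.84 FPKM in mutant libraries, against 5.90, 8.0 and 9.17 FPKM in wildtype libraries. Cacna2d3 had 2.62, 3.24 and 3.39 FPKM in mutant libraries, against 2.94, 3.09 and 3.45 FPKM in wildtype libraries. Cacna2d2, which also binds gabapentin, had 2.58, 2.86 and 3.04 FPKM in mutant libraries, against 2.16, 2.68 and 2.92 FPKM in wildtype libraries. The lowest value of Cacna2d1 belonged to mutant male 6, and genotypes overlapped for all 3 genes. Cacna2d4, a subunit of mature photoreceptors, averaged 0.830 ± 0.135 FPKM in mutant and 0.888 ± 0.128 FPKM in wildtype libraries (SD, n = 6 each).

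Among the beta genes Cacnb3, a neuronal beta subunit, supplied 78.8% ± 1.75 of the summed FPKM in mutant and 79.2% ± 1.02 in wildtype libraries, at 52.6, 65.1 and 89.0 FPKM in mutant and 57.7, 60.9 and 74.0 FPKM in wildtype libraries. Cacnb1, the isoform that skeletal muscle requires and that neurons also express, had 12.2, 15.7 and 18.6 FPKM in mutant libraries, against 13.1, 14.8 and 15.8 FPKM in wildtype libraries. Cacnb2, which the mature photoreceptor synapse needs, had 0.808, 1.39 and 1.48 FPKM in mutant libraries, against 1.23, 1.35 and 1.5 FPKM in wildtype libraries. The mutant extremes of all 3, high for Cacnb3 and Cacnb1 and low for Cacnb2, came from mutant male 6. Cacnb4, mutated in the lethargic mouse, averaged 0.474 ± 0.156 FPKM in mutant and 0.557 ± 0.190 FPKM in wildtype libraries (SD, n = 6 each). Cacnb4 shares 16% of its exon bases with A430018G15Rik on the opposite strand in GENCODE M21, and it was the 1 member that shared more than 10% with another gene.

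The gamma genes included both the most abundant member and some of the scarcest ones. Cacng4 had 83.4, 93.3 and 116 FPKM in mutant libraries, against 87.1, 91.1 and 100 FPKM in wildtype libraries, and Cacng7 33.4, 42.6 and 46.1 FPKM in mutant libraries, against 34.4, 38.7 and 42.1 FPKM in wildtype libraries. Cacng5 had 5.88, 6.85 and 8.02 FPKM in mutant libraries, against 5.92, 6.92 and 7.90 FPKM in wildtype libraries. Cacng4 encodes a TARP of the first type, and Cacng7 and Cacng5 encode TARPs of the second type. Cacng8, the main hippocampal TARP, averaged 7.49 ± 2.61 FPKM in mutant and 6.51 ± 0.539 FPKM in wildtype libraries, and Cacng2, stargazin, 2.61 ± 0.325 FPKM in mutant and 2.70 ± 0.419 FPKM in wildtype libraries (SD, n = 6 each). Cacng6, a relative of Cacng1, stayed at 4 to 16 counts in mutant and 10 to 23 counts in wildtype libraries, and Cacng1, the skeletal muscle subunit, at 0 to 6 counts in mutant and 1 to 5 counts in wildtype libraries.

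The comparison of mutant with wildtype retina over both sexes asked whether loss of Tbr2 changed the channel genes. No member passed edgeR's quasi-likelihood test, its p adjusted after Benjamini and Hochberg over all genes that passed the filter (0 of 30 tested), against 0.0259% of the 15467 genes tested. DESeq2 and limma voom likewise called 0 members. At an unadjusted p under 0.05 there were 2 members, Cacng3 and Scn3b, both lower in mutants, which is 6.67% of the 30 against 2.92% of all genes. Of all genes 1.5% were lower and 1.42% higher at that p. The other 5 members had too few counts to be tested. Log2 fold changes were below 0 for 16 of the 30 members (53.3%) and for 52.7% of all genes, and their median was -0.02 for members and -0.01 for all genes.

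The standard errors bounded differences in RNA of whole retina pools about as closely for members as for all genes. Changes confined to the cells that express Tbr2 were not measured. The estimate with 2 standard errors on each side lay within 1.5-fold in both directions for 23 of 30 members, and for 75.0% of all genes tested. The 7 others included Cacng3, Scn9a, Cacna2d1, Cacnb4, Cacng6 and Cacna1f. For Cacng4, Cacnb3 and Cacna1b the log2 fold changes were 0.03, 0.04 and 0.01 with standard errors of 0.07, 0.10 and 0.08. By class the medians were -0.09 for 6 sodium alpha genes, -0.04 for 3 sodium beta genes, 0.00381 for 6 alpha1 genes, -0.05 for 4 alpha2delta genes, -0.02 for 4 beta genes and 0.000828 for 7 gamma genes.

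**Figure D2:**
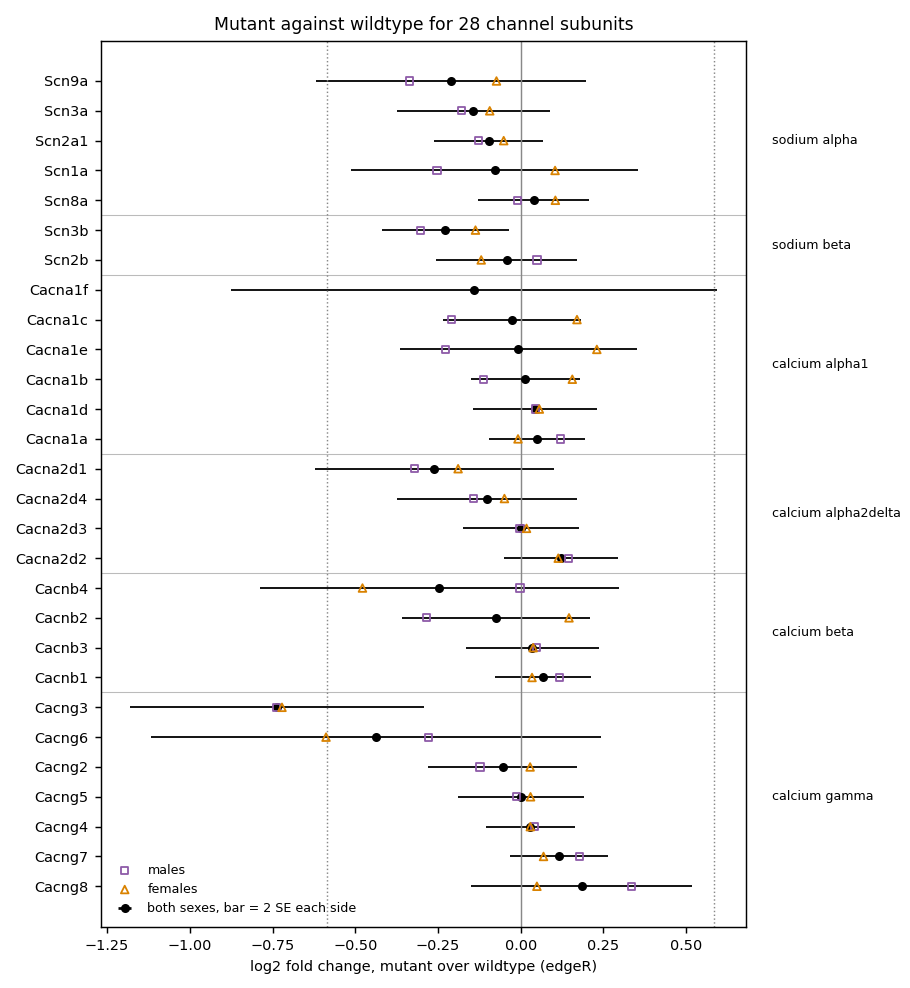
Log2 fold change of mutant over wildtype (edgeR) for 28 of the 30 tested members, by subunit class; black points with bars give both sexes with 2 standard errors each side, squares males and triangles females, and dotted lines mark 1.5-fold. Cacna1f has a value over both sexes only. Cacng3 is the one member whose estimate over both sexes lies beyond a dotted line, at -0.74.

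Cacng3 encodes a TARP close to stargazin that is mainly known from cerebral cortex. It had 4.96, 3.98 and 7.24 CPM in mutant males 4, 5 and 6, against 7.64, 10.1 and 9.23 CPM in wildtype males 4, 5 and 6. In females it had 2.79, 6.71 and 4.17 CPM in mutant pools 4, 5 and 6, against 6.65, 5.59 and 10.3 CPM in wildtype pools 4, 5 and 6. Every mutant male lay below every wildtype male, while in females mutant 5 lay above wildtypes 4 and 5. Over both sexes Cacng3 averaged 4.98 ± 1.70 CPM in mutant and 8.25 ± 1.93 CPM in wildtype libraries (SD, n = 6 each). The log2 fold change was -0.74 (SE 0.22), with an unadjusted p of 0.00543 in edgeR's quasi-likelihood test and an adjusted p of 0.918, so the difference did not pass. Over 21 alternatives the adjusted p ran from 0.260 to 1.0.

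Cacng3 was also fitted within each set of libraries, and the gap between the estimates was not tested. Its log2 fold change was -1.32 among the 5 libraries high in mt-Nd6 and -0.36 among the other 7, neither past the edgeR threshold (adjusted p = 0.260 and 0.637). In the low set mutant male 6 and mutant female 5 lay above wildtype female 5. Without the 3 libraries with most Cryaa, a lens gene, the value was -0.80. Across the fits that left out 1 library, the estimate ranged from -0.91 to -0.61. Counts behind these values were 63 to 157 in mutant and 110 to 259 in wildtype libraries. The gene spans 122670492 to 122769393 on mm10 chromosome 7. A bulk pool cannot tell fewer cells that express a gene from less RNA per cell. Of 14 ganglion cell genes 12 were lower and 2 higher in mutants, where 52.7% of all genes were lower, with a median log2 fold change of -0.05 and 0 past the threshold. The 2 higher ones, Ebf3 at 0.20 (SE 0.05) and Nefm at 0.19 (SE 0.06), were the list's only genes with an unadjusted p under 0.05 in edgeR, at 0.00167 and 0.00896. The part of ganglion cell genes in the Cacng3 difference was not tested.

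Scn3b had 62.3, 67.4 and 44.4 CPM in mutant males 4, 5 and 6, against 69.6, 70.8 and 75.2 CPM in wildtype males 4, 5 and 6. Mutant females 4, 5 and 6 had 55.2, 58.3 and 63.6 CPM, against 59.1, 61.7 and 73.5 CPM in wildtype females 4, 5 and 6. Male pools did not overlap between genotypes, whereas mutant female 6 lay above wildtype females 4 and 5, and mutant male 6 was the lowest of all 12. The means were 58.5 ± 8.13 CPM in mutant and 68.3 ± 6.48 CPM in wildtype libraries (SD, n = 6 each). The log2 fold change of Scn3b was -0.23 (SE 0.10, unadjusted p = 0.0330, edgeR adjusted p = 0.918, and 0.422 to 1.0 over 21 alternatives), and the gene did not pass. Without mutant male 6 the estimate was -0.15. It was -0.23 among the 5 libraries of the high set and -0.22 among the 7 of the low set. In males alone it was -0.30, and -0.14 without mutant male 6. The gene lies on mm10 chromosome 9 from 40269216 to 40291618.

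Cacna2d1 had 63.3, 41.0 and 27.9 CPM in mutant males 4, 5 and 6, against 52.8, 68.5 and 44.1 CPM in wildtype males 4, 5 and 6. In females it had 66.0, 45.1 and 52.2 CPM in mutant pools 4, 5 and 6, against 64.5, 55.2 and 66.6 CPM in wildtype pools 4, 5 and 6. Genotypes overlapped in both sexes, and mutant male 6 was the lowest of all 12. Cacna2d1 averaged 49.2 ± 14.4 CPM in mutant and 58.6 ± 9.51 CPM in wildtype libraries (SD, n = 6 each), with a log2 fold change of -0.26 (SE 0.18) that did not pass edgeR's test. The value was -0.04 among the 5 libraries high in mt-Nd6, -0.35 among the 7 low in it (unadjusted p = 0.0312) and -0.19 with a term for the set. It was -0.15 without mutant male 6, -0.41 without mutant male 4 (unadjusted p = 0.0274), -0.16 without wildtype male 5 and -0.07 without the 3 libraries with most Cryaa. The edgeR, DESeq2 or voom adjusted p over these and the other alternatives was 0.422 to 1.0.

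**Figure D3:**
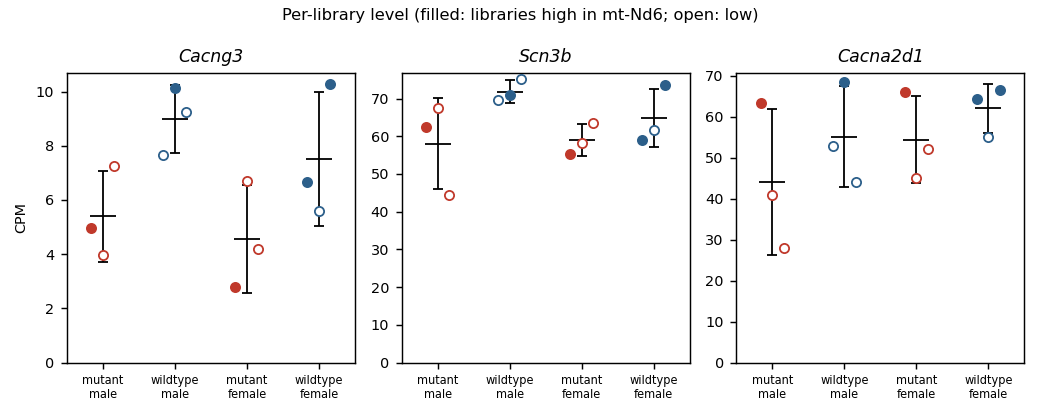
CPM of Cacng3, Scn3b and Cacna2d1 in each library; filled points are the 5 libraries high in mt-Nd6 and open points the 7 low in it, and dashes with bars give the mean and SD of 3 libraries. Mutant and wildtype males are apart for Cacng3 and Scn3b, and for Cacna2d1 all filled points lie above all open ones.

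In males alone, 0 of 29 tested members passed edgeR's test, where 0% of 14945 genes did, and 1 member, Cacng3, had an unadjusted p under 0.05 (3.45% of members, 1.41% of all genes). That count was 3 without mutant male 4 (Cacna2d1, Cacng3 and Cacng8), 0 without wildtype male 5, and 1 without mutant male 5, where it was Scn3b in place of Cacng3. It was 1, Cacna2d1, among males low in mt-Nd6 and 0 without males 5 of both genotypes. For these fits the share of all genes was not computed. DESeq2 and limma voom called 0 members. The log2 fold change of Cacng3 in males was -0.74 (SE 0.25, edgeR adjusted p = 0.994), and -0.45 without males 5 of both genotypes, the males with most Cryaa. Estimates were below 0 for 19 of 29 members (65.5%) and 48.8% of all genes. The male pools of Cacng3, Scn3b and Cacna2d2 did not overlap between genotypes, 3 of 29 members (10.3%) against 5.38% of all genes. Cacna2d2 was the 1 of these that was higher in mutants, at a log2 fold change of 0.15 (SE 0.13).

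In females alone, 0 of 28 tested members passed edgeR's test, against 0.00669% of 14956 genes, and 0 had an unadjusted p under 0.05, against 2.63% of all genes. With the replicate number as a block that count was 1, Cacng3 (-0.76, unadjusted p = 0.0347, edgeR adjusted p = 0.845), and by DESeq2 it was also Cacng3 alone (unadjusted p = 0.0335). In the authors' deposited table its unadjusted p was 0.0324. Leaving out 1 library gave 0 to 3 members, the highest without mutant female 4. No share of all genes was computed for the alternative fits. Among females high in mt-Nd6 the count was 2, Cacng3 and Scn3b, and among those low in it 1, Cacna1b. By number, which is not known to mark pairs, Scn3b was lower in the mutant in 3 of 3 female pairs. Cacng3 was lower in numbers 4 and 6 and higher in number 5. The share of all genes lower in 3 of 3 was not computed. DESeq2 and limma voom called 0 members at the adjusted threshold. Estimates were below 0 for 11 of 28 members (39.3%) and 51.7% of all genes. Cacng3 stood at -0.72 (SE 0.34, edgeR adjusted p = 0.986). Without wildtype female 6 that value was -0.43, and without mutant female 5 it was -1.11. It was -1.57 among the 3 female libraries high in mt-Nd6 and passed there (edgeR adjusted p = 0.0319), in a fit with 1 mutant pool, assumed to vary like the others, that called 62 genes. Within the 3 female libraries low in mt-Nd6, with 1 wildtype pool, it was -0.01. Female pools did not overlap for 2 of 28 members (7.14%), among them Cacnb2, which was higher in mutants, against 8.09% of all genes. No member was separated in the same direction in both sexes (0 of 30), against 0.394% of all genes.

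The interaction asked whether the genotype difference itself differed between the sexes. It passed for 0 of 30 members by edgeR, DESeq2 or limma voom, where 0% of all genes passed by edgeR, and 0 members had an unadjusted p under 0.05, against 1.73% of all genes. Subtracting the male from the female log2 fold change gave 0.02 (SE 0.46) for Cacng3 and 0.18 (SE 0.19) for Scn3b. Estimates were below 0 for 11 of 30 members (36.7%) and 51.3% of all genes. The smallest unadjusted p among members was that of Cacna1c (0.0586), at 0.39 (SE 0.19, edgeR adjusted p = 1.0).

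Between females and males, over both genotypes, 0 of 30 members passed edgeR's test, against 0.0129% of all genes, and DESeq2 and limma voom also called 0. Cacna1b alone had an unadjusted p under 0.05 (3.33% of members, 2.79% of all genes). That count was 6 without mutant male 4, and 0 without mutant male 5, wildtype male 4, wildtype male 5, wildtype female 5 or wildtype female 6. It was 0 among libraries high in mt-Nd6, 3 among those low in it and 0 without the 3 libraries with most Cryaa. The share of all genes in these alternative fits was not computed. For Cacna1b the lowest, median and highest levels were 49.5, 57.0 and 59.7 CPM in the 6 female libraries, against 53.9, 66.3 and 71.3 CPM in the 6 male libraries. The sexes overlapped, with only mutant male 4 among the males below the highest female. Estimates were below 0, or lower in females, for 19 of 30 members (63.3%) and 49.1% of all genes. The log2 difference of females over males for Cacna1b was -0.21 (SE 0.08, unadjusted p = 0.0224, edgeR adjusted p = 0.879), and -0.28 to -0.17 over 21 alternatives.

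The sets of libraries separated some members. For 7 of 30 tested members (23.3%) every library high in mt-Nd6 lay on one side of every library low in it, as it did for 15.7% of all genes tested. Cacnb4, Scn9a, Cacna2d1 and Scn3a were higher in the high set. Scn9a had 29.4 to 46.0 CPM in the 5 libraries of the high set, against 17.0 to 28.1 CPM in the 7 of the low set. Cacna2d1 had 63.3 to 68.5 CPM in the high set, against 27.9 to 55.2 CPM in the low set. Cacnb3, Cacng7 and Cacng8 were lower in the high set. Cacnb3 had 148 to 167 CPM in the high set, against 176 to 251 CPM in the low set, and Cacng7 had 73.8 to 90.5 CPM in the high set, against 91.5 to 102 CPM in the low set.

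The 4 members that were higher have listed lengths of 7472 to 9840 bases, and the 3 that were lower have lengths of 1897 to 2819 bases. Across the 30 members the log2 ratio of the sets had a Spearman rho of 0.383 with gene length, and across 15467 genes one of 0.213. These rest on the same libraries, and genes are not replicates. Longer members such as Cacna1e, at 14921 bases and -0.12, overlapped between the sets. The library sets hold both genotypes and both sexes, and a term for the set left the genotype estimates at -0.74 for Cacng3 and -0.22 for Scn3b. What sets these libraries apart was not tested.

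**Figure D4:**
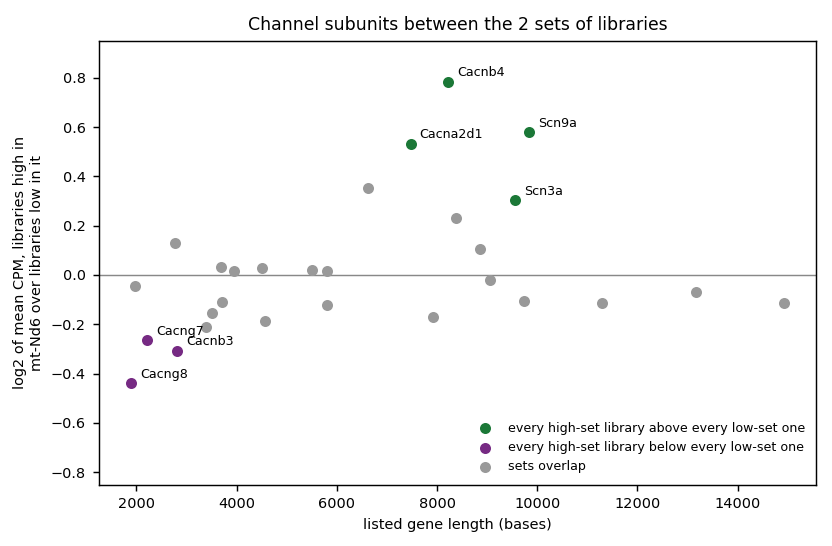
Log2 ratio of mean CPM in the 5 libraries high in mt-Nd6 over that in the 7 low in it, against listed gene length, for 28 of the 30 tested members; coloured points are the 7 members whose library sets do not overlap. The 4 members higher in the high set are between 7472 and 9840 bases long and the 3 lower ones at most 2819 bases.

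Genes that act with or beside these channels were described from lists of partners. The list of sodium channel partners also holds the leak channel gene Nalcn, Unc79, Unc80, Fam155a and the sodium-calcium exchanger genes Slc8a1, Slc8a2 and Slc8a3. Of 23 tested sodium channel partners, among them the ankyrins, spectrins and fibroblast growth factor homologous factors that hold or adjust sodium channels, 9 were higher, 14 lower and 0 past the edgeR threshold, with a median log2 fold change of -0.02. The smallest p values were those of Nfasc (0.11, SE 0.07), Nedd4l (-0.10, SE 0.07) and Calm3 (0.10, SE 0.07). Of 26 calcium channel partners, which include active zone proteins, calcium release channels and calmodulin-like proteins, 14 were higher, 12 lower and 0 past the threshold, with a median of 0.00539. Itpr1, the receptor that releases stored calcium, was at 0.16 (SE 0.07), Rims2 at -0.15 (SE 0.09) and Snap25 at -0.20 (SE 0.12). Of 33 voltage-gated potassium channel genes, which repolarise the cell, 13 were higher, 20 lower and 0 past the threshold, with a median of -0.04. Over all genes tested 52.7% were lower, and 2.92% had an unadjusted p under 0.05 in edgeR. At that p there were 0 of the 23 sodium channel partners, 1 of the 26 calcium channel partners and 5 of the 33 potassium channel genes. Those potassium channel genes changed in both directions. Kcnh1, an ether-a-go-go channel, stood at 7.86 ± 1.31 CPM in mutant and 4.96 ± 0.951 CPM in wildtype libraries (SD, n = 6 each), at a log2 fold change of 0.67 (SE 0.15, edgeR adjusted p = 0.623). Kcnc2 was at -0.34 (SE 0.12) and Kcna4 at -0.58 (SE 0.23). Among the T-type genes outside the rule, Cacna1i averaged 145 ± 27.5 CPM in mutant and 32.8 ± 37.3 CPM in wildtype libraries, Cacna1g 19.4 ± 2.88 CPM in mutant and 16.2 ± 1.92 CPM in wildtype libraries, and Cacna1h 69.9 ± 12.8 CPM in mutant and 67.3 ± 6.29 CPM in wildtype libraries (SD, n = 6 each). None of these 3 passed the edgeR threshold (adjusted p = 0.918 for Cacna1i and Cacna1g, unadjusted p = 0.00312 and 0.0192).

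The authors' deposited table of both sexes gave no member an adjusted p under 0.05, with 0.483 for Cacng3 as the smallest and 2 members at an unadjusted p under 0.05. In the authors' deposited tables of males and of females the smallest adjusted p of any member was 0.999 and 1.0.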

How the data were processed

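Per the submitters' processing notes, reads were aligned to mm10 with STAR 2.5, counted with HTSeq 0.6.1 and tested with DESeq2. Neither the gene annotation used nor whether counting was stranded is given in the sources used here, so reads of overlapping genes on opposite strands cannot be told apart. Per the file headers the authors deposited raw counts per gene, FPKM, log2 fold changes, p-values and adjusted p-values. FPKM equalled counts divided by listed length and library total, within a relative gap of 0.000274. The deposited log2 fold changes entered no test. The 48 further columns of per-library values were not used.

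Counts of all 19954 genes were fitted with edgeR 4.0.16 in R 4.3.3, with TMM scaling, filterByExpr and a two-sided quasi-likelihood test. Benjamini-Hochberg adjustment ran over all genes tested, with a threshold of 0.05. Both sexes were fitted with genotype and sex as terms over 12 libraries, and each sex alone over 6. Standard errors were obtained by dividing each log2 fold change by the root of its F. CPM is not TMM-scaled. Alternatives were other size factors, DESeq2 1.42.0, limma 3.58.1 voom, no filter, a replicate block, a term for or a fit within library sets (over or under 100 CPM of mt-Nd6), and leaving out libraries. Fits over both sexes, in males and in females were also run on simulated counts with known changes. Simulated libraries differed only in total, random spread and those changes, so they held no library sets. No result above rests on them.

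Deviations of same-numbered mutant and wildtype female pools correlated at 0.210, 0.213 and 0.138 for numbers 4, 5 and 6. Those of male pools correlated at -0.205, 0.00822 and 0.292. Between the sexes the values were 0.441, 0.206 and 0.219 for mutant pools, and -0.0732, -0.273 and 0.0865 for wildtype pools. Pools of unlike number were not compared, so whether numbers mark pairs cannot be told. The fits over both sexes treat all libraries as independent, and the blocked fit is an alternative. No 2 libraries held identical counts. Exon overlaps came from GENCODE M21, which listed 35 of 35 members, 22 of them with the same start and end as the deposited table. Members and lists were chosen with earlier results of these data known. Values are given for members with an unadjusted p under 0.05, those apart in both sexes and the 3 highest of each class in FPKM. For partner lists the 3 smallest p-values are named. Other named members were chosen after their values were seen. Some members counted in the totals are not reported here by name.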

Additional observations from a re-analysis of the deposited data

Results flagged for a closer look

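In 8 of 56 sets of 6 libraries (28 members, each genotype), the most extreme library was far from the rest by Dixon's test at the 95% level. Chance gives about 1 in 20 for independent sets. These sets share the same 12 libraries, and the share over all genes was not computed. In 5 of the 8 flagged sets the library was mutant male 6. It was highest among mutant libraries for Cacng8 at 23.7 CPM (next 14 CPM), Cacnb3 at 251 CPM (next 186 CPM), Cacng4 at 404 CPM (next 333 CPM) and Cacng2 at 17.7 CPM (next 14.4 CPM), and lowest for Cacna2d3 at 9.67 CPM (next 11.5 CPM). Among wildtype libraries, Cacna1e was highest in male 4 at 9.62 CPM (next 5.86 CPM) and Cacna1f in female 6 at 0.949 CPM (next 0.508 CPM). Cacng2 was lowest in wildtype female 5 at 10.5 CPM (next 14.9 CPM).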

How the results depend on the processing

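No alternative called a member over both sexes, in males, in the interaction or between the sexes. In females 1 member, Cacng3, was called among high mt-Nd6 libraries, where 2 wildtype pools met 1 mutant pool. The count of 4 genes over both sexes was 15 with DESeq2, 2 with the replicate block, 9 with a term for the library set, 0 without the 3 libraries with most Cryaa, and 1 to 5 without 1 library each. In males 0 genes became 6 with DESeq2 and stayed 0 in the 6 fits without 1 library. In females 1 gene became 10 with DESeq2, 2 with the replicate block, 62 in the set high in mt-Nd6, 61 in the low one, 0 without the libraries with most Cryaa, and 0 to 2 without 1 library. The interaction called 2 genes within the high set. Between the sexes the count of 2 was 1 within the low set and 1 without the libraries with most Cryaa. The number of members at an unadjusted p under 0.05 over both sexes was 4 without mutant male 4, 3 with the replicate block or within the high set, and 1 without wildtype male 4, wildtype male 5, wildtype female 6 or the libraries with most Cryaa, or within the low set. The share of all genes at that p was computed for the main fits only. The cause of these changes in counts was not tested.

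Signs turned as follows. Scn3b in females was 0.000665 within the low set, its interaction -0.0408 within the high set, and its sex difference 0.00717 without the libraries with most Cryaa. The interaction of Cacng3, 0.02 as reported, was -0.52 within the high set, -0.66 without the libraries with most Cryaa, and -0.37 to 0.32 without 1 library each. The 35 members kept their order of level with TPM in place of FPKM. TPM uses the same counts and lengths, rescaled within each library, so this check could hardly have changed the order. Males within the high set (2 libraries) could not be fitted. The replicate block changed no member's call at the adjusted threshold. Counts under about 20 per library limit Cacna1f, Cacng6 and the 5 untested members.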
